A study of Rattus norvegicus with 56 samples.

Results

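Triglyceride is built on a backbone of glycerol-3-phosphate, and 7 genes that supply this backbone or add to it were followed here: Aqp7, Gpd1, Gpam, Agpat2, Lpin1, Dgat1 and Dgat2. Every probe set annotated to one of these genes was taken, which gave 8 of the 15866 probe sets tested, or 7 genes of 10411 named genes. Gpd1 had a pair of probe sets (1369560_at and 1371363_at) and each other gene had 1. All 7 genes were measured. A probe set is a group of short oligonucleotides on the array that reads 1 transcript.

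The RNA came from mammary glands, and all rats were female Wistar Furth, which is an inbred strain. Treated rats are those labelled RXR treatment, and control rats stand against them. RXR is commonly short for retinoid X receptor, which binds DNA together with partner nuclear receptors. The sources used here name no compound, dose, duration or age of the rats. By the labels, 6 treated rats were in diestrus and 6 in proestrus or estrus, and of the control rats 9 were in diestrus and 3 in proestrus or estrus. Each of the 12 treated and 12 control rats had an array of its own. Labelled targets of these rats were also combined in equal amounts into 6 treated and 6 control pools of 2 rats, 4 treated and 4 control pools of 3 rats, and 1 treated and 1 control pool of 12 rats that was hybridised 4 times, for 56 arrays in all with 2 further arrays each of treated rat 3 and control rat 3. All values are deposited log2 values, on which a difference of 1 is a doubling. The probe sets differ in how strongly they bind, so the height of one probe set against another says nothing of which gene has more RNA, and levels were compared between groups of rats only.

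Cells make triglyceride at the endoplasmic reticulum by adding fatty acids to glycerol-3-phosphate. Gpd1 reduces the glycolytic intermediate dihydroxyacetone phosphate to glycerol-3-phosphate, Gpam adds the first fatty acid and Agpat2 the next, Lpin1 removes the phosphate to give diacylglycerol, and Dgat1 or Dgat2 adds the last fatty acid. Aqp7 is the channel through which fat cells move glycerol across their membrane. The mammary gland holds fat cells, which store triglyceride, and epithelial cells, which secrete it as milk fat during lactation.

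Array medians lay between 7.40 and 7.47, and the number of arrays limits the precision. After the mean of the 24 rats was subtracted from each probe set, technical repeat 3 of the control pool of 12 had r = 0.0801 with the pool's first array across all probe sets, while the other repeats of both pools had 0.565 to 0.82. A source label of individual stands on 3 arrays of either pool of 12, and these were kept as pools because their titles call them technical repeats of the pooled aliquot and their descriptions name 12 rats. The p-values of differences set each difference against the spread between these rats or, for pools, between pool arrays. Those of correlations come from permuting the rats of a group.

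In whole glands, 6 of the 7 genes were higher in treated rats and Dgat1 did not pass the test. By limma with Benjamini-Hochberg adjustment over all 15866 probe sets and a threshold of 0.05, 7 of the 8 member probe sets were called, all of them higher, against 18.1% of all probe sets called and 8.46% called higher. The median difference of the 8 member probe sets was 1.14, and over all probe sets it was -0.00. In bulk tissue, a change in the number of cells that use a gene and a change in its RNA per cell cannot be told apart. 

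Aqp7 ran from 9.87 to 11 with a median of 10.48 in treated rats, against 8.78 to 10.09 with a median of 9.29 in control rats. The groups overlapped slightly, and 10 of the 12 treated rats lay above the highest control rat. The difference was 1.10 ± 0.14 log2 (SE), which is 2.14-fold (limma adjusted p = 6.04e-06). Aqp3 and Aqp9, other glycerol channels, stayed within 0.10 of the control rats, at -0.10 and 0.00, and did not pass. Both probe sets were dim, with means at the 13.5 and 20 percentile of all probe sets, so a change could be missed.

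Gpd1 was read by both of its probe sets. By 1371363_at, the one with the higher mean, it ran from 11.40 to 12.78 with a median of 12.12 in treated rats, against 10.51 to 11.65 with a median of 10.84 in control rats, a difference of 1.17 ± 0.15 (SE; limma adjusted p = 7.27e-06). Probe set 1369560_at gave 9.34 to 11.24 with a median of 10.14 in treated rats, against 8.44 to 9.57 with a median of 8.82 in control rats, a difference of 1.43 ± 0.18 (SE; limma adjusted p = 5.58e-06). By each of them 10 of 12 treated rats exceeded every control rat. The pair followed each other from rat to rat at r = 0.80 (Spearman rho = 0.78) in treated and r = 0.78 (rho = 0.73) in control rats, with permutation p-values of 0.00227 (0.00426 for rho) and 0.00155 (0.00802 for rho). Without the 2 rats farthest from the median the r was 0.72 in treated and 0.69 in control rats.

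Gpam encodes the mitochondrial glycerol-3-phosphate acyltransferase. Its probe set was dim, with a mean at the 38.2 percentile of all probe sets. Its values were 6.53 to 8.18 with a median of 7.36 in treated rats, against 6.12 to 6.66 with a median of 6.34 in control rats. Control rats clustered tightly while treated rats were spread widely, with an SD of 0.511 in treated rats and 0.142 in control rats, 3.59 times as large in the treated group. Gpam had the largest such ratio among the members. Repeat arrays of the same rat or mixture had an SD of 0.0986 for this probe set. Without technical repeat 3 of the control pool of 12 this SD was 0.0784. The difference was 0.93 ± 0.14 (SE), 1.91-fold, with a limma adjusted p of 4.6e-05.

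Agpat2, whose loss in people causes a congenital lack of body fat, varied most between rats. It ran from 9.68 to 11.83 with a median of 10.68 in treated rats, against 8.89 to 10.92 with a median of 9.61 in control rats. The groups overlapped widely, and only 5 treated rats lay above the highest control rat, although 11 of 12 lay above the control mean. The SD was 0.67 in treated and 0.744 in control rats, and 0.0997 between repeat arrays. Without technical repeat 3 of the control pool of 12 the last was 0.101. Agpat2 had the least certain of the called differences, 0.96 ± 0.27 (SE), 1.94-fold, with a limma adjusted p of 0.0133, so that it would not pass a threshold of 0.01.

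Lpin1 encodes a phosphatidate phosphatase that also acts on transcription in the nucleus. It ran from 8.59 to 10.03 with a median of 9.42 in treated rats, against 7.69 to 9.04 with a median of 8.03 in control rats. Of the 12 treated rats 10 lay above every control rat. The difference was 1.20 ± 0.18 (SE), 2.29-fold, with a limma adjusted p of 3.55e-05.

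Promoter sequences are shown for Gpam, Agpat2 and Lpin1, which encode consecutive steps and were all called higher in treated rats. These 3 of the 7 members have an entry in the promoter table used, from RefSeq on GRCr8. Each line gives the 250 bases before the transcript start, 5′ to 3′ on the gene's strand, which is the minus strand for all 3. Capitals mark CCAAT or GGGCGG on either strand. The windows are chr1:264175912-264176161 for Gpam, chr3:29826158-29826407 for Agpat2 and chr6:45108943-45109192 for Lpin1. The transcript start that the table uses lies inside the annotated span of each gene, 201 bases from its outer end for Gpam, 412 for Agpat2 and 36903 for Lpin1. So 201 of the 250 bases for Gpam, and all 250 for Agpat2 and Lpin1, lie within the gene, and starts farther out were not used here.
Gpam: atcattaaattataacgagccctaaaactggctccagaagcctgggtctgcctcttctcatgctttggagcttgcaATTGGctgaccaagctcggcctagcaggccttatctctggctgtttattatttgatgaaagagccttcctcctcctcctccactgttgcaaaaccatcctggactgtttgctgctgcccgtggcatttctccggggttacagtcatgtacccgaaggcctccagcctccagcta
Agpat2: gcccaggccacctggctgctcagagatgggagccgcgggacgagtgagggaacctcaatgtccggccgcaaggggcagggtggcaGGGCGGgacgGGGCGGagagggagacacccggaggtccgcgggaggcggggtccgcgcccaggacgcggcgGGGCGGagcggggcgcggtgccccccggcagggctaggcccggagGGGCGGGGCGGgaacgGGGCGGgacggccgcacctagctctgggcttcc
Lpin1: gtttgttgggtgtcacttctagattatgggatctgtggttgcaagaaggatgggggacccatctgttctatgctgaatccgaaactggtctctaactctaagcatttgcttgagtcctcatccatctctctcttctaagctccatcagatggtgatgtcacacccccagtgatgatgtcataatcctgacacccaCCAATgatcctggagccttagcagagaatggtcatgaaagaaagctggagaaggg
The Agpat2 window has 6 matches to GGGCGG, the GC box, of which 2 share a base, and the other windows have 0. This motif occurs in 30.5% of the 33469 promoter windows of the table. The Gpam and Lpin1 windows have 1 match each to CCAAT, at bases 174 to 170 and 55 to 51 before the start, and the Agpat2 window has 0, where 34% of all windows have a match. AGGTCA, the half-site that nuclear receptors recognise, was found in none of the 3 windows on either strand, nor was AGGTCANAGGTCA, which holds that half-site on both sides of 1 base, nor CACGTG, the E-box. Over all windows the shares were 14.1%, 0.0508% and 5.59%. A match describes letters and not a bound site, and no match speaks only for these letters in these windows.

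The enzymes of the last step, Dgat1 and Dgat2, belong to unrelated protein families and differed in their values. Dgat1 ran from 9.17 to 10.48 with a median of 9.85 in treated rats, against 9.22 to 10.51 with a median of 9.55 in control rats. The groups covered the same range, and 0 treated rats exceeded the highest control rat. The difference was 0.09 ± 0.14 (SE) with a 95% confidence interval from -0.21 to 0.39 (limma adjusted p = 0.755), which leaves room for a small change in either direction.

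Dgat2 ran from 11.73 to 12.73 with a median of 12.44 in treated rats, against 10.48 to 11.71 with a median of 11.04 in control rats. It was the only member whose groups did not overlap over the 24 rats, although the lowest treated rat lay just 0.02 above the highest control rat. Of all probe sets, 0.384% had treated rats wholly above control rats. The difference was 1.28 ± 0.14 (SE), 2.42-fold, with a limma adjusted p of 1.12e-06.

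**Figure D1:**
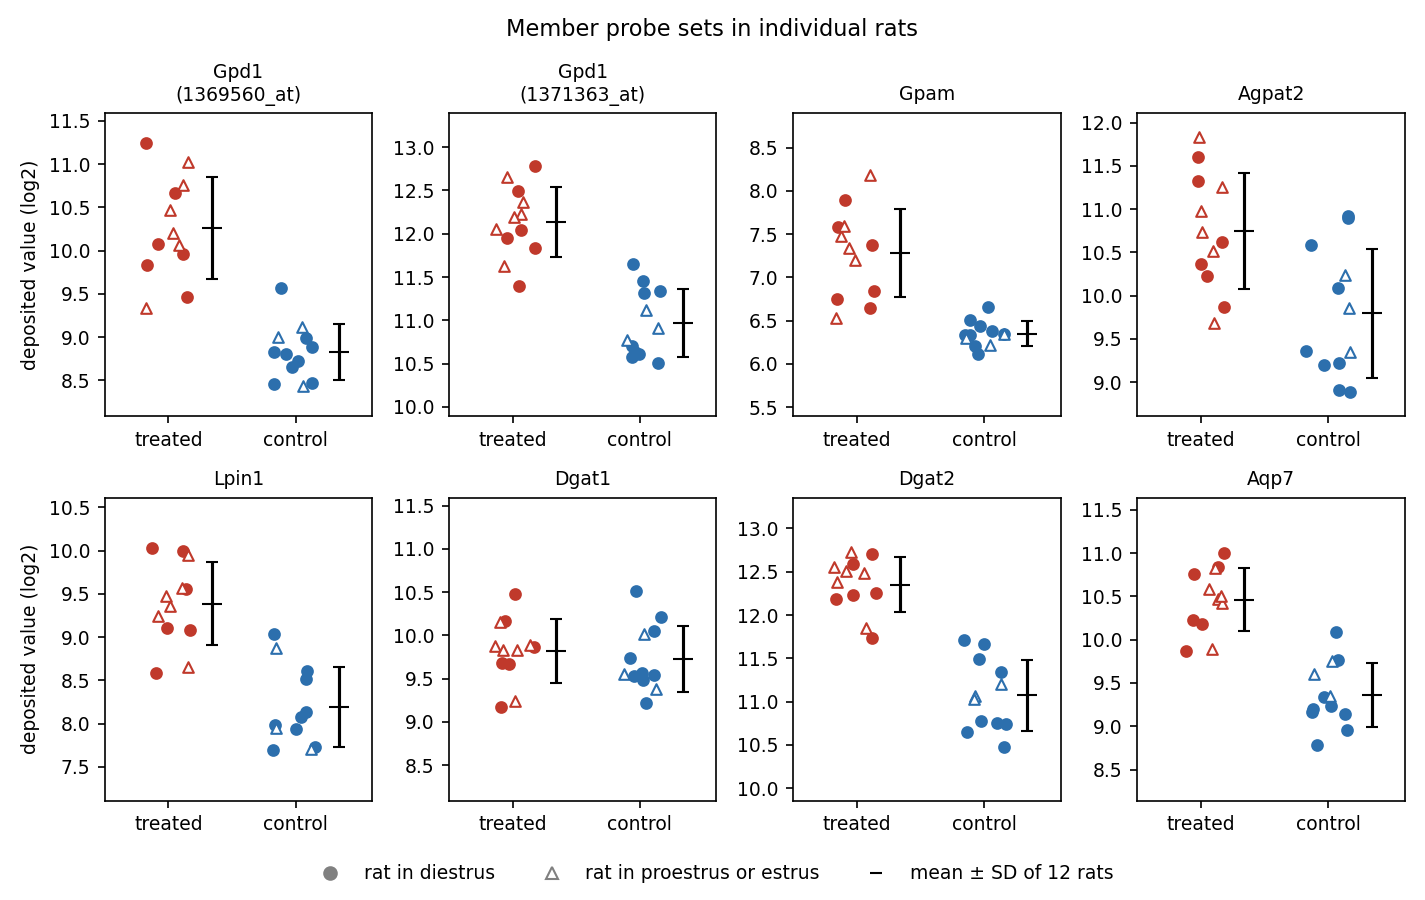
Deposited log2 values of the 8 member probe sets in 12 treated rats (left in each panel, red) and 12 control rats (right, blue). Every panel spans the same number of log2 units, filled circles are rats in diestrus, open triangles are rats in proestrus or estrus, and black marks give the mean ± SD. The treated and control points cover the same range for Dgat1 and are separate for Dgat2.

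Within a rat, the value of Dgat2 minus that of Dgat1 set both enzymes on the same array. Its size depends on how the probe sets bind, so only its difference between groups can be read. This pair was chosen after its values were seen, so the difference is a description with no test. Dgat2 minus Dgat1 ran from 2.22 to 2.68 with a median of 2.57 in treated rats, against 0.94 to 1.65 with a median of 1.33 in control rats. The groups lay far apart, and the spread was an SD of 0.14 in treated and 0.24 in control rats around means of 2.53 and 1.34. That difference between groups was 1.19, against 1.14 among rats in diestrus and 1.17 among rats outside it. In pools of 2, 3 and 12 it was 1.05, 1.11 and 1.11. In individual rats the value minus that of Dgat1 also separated treated from control without overlap for Gpd1 (both probe sets), Lpin1 and Aqp7. It overlapped for Gpam and Agpat2. How many of all probe sets separate by this measure was not counted, so it does not set the members apart from other genes.

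**Figure D2:**
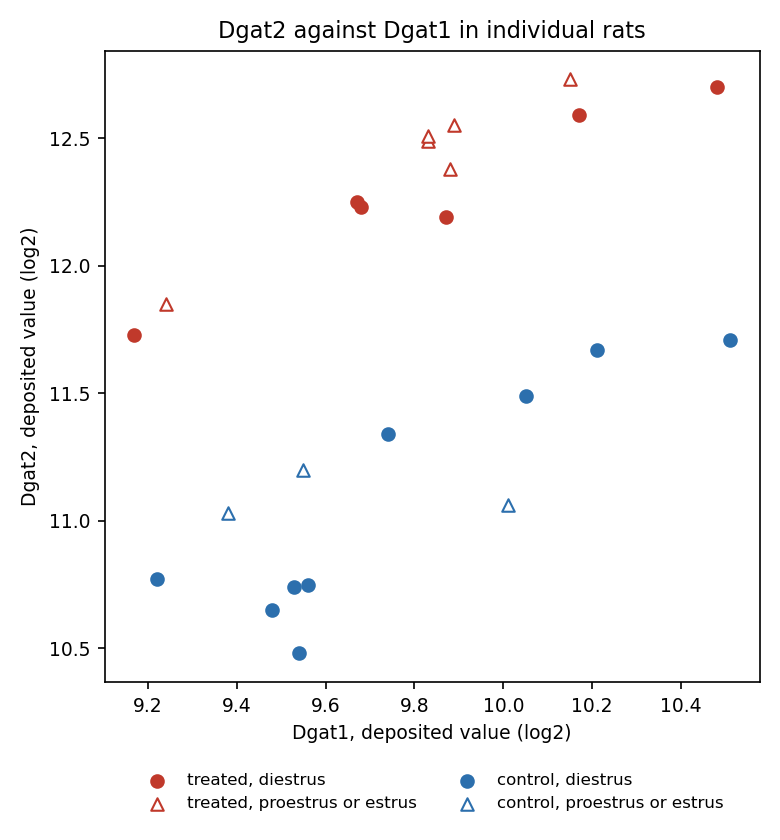
Dgat2 (vertical axis) against Dgat1 (horizontal axis), deposited log2 values, 1 point per rat. The 12 treated rats (red) lie above the 12 control rats (blue) at every level of Dgat1. Filled circles are rats in diestrus and open triangles rats in proestrus or estrus.

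Among all 15866 probe sets ordered by how much higher they were in treated rats, 1369560_at of Gpd1 was at place 17, Dgat2 at 25, Lpin1 at 33, 1371363_at of Gpd1 at 36, Aqp7 at 44, Agpat2 at 61 and Gpam at 64. Dgat1 was at place 2381. The differences of the 7 called probe sets lay between 0.93 and 1.43 with SEs of 0.14 to 0.27, and all their 95% confidence intervals overlapped each other.

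The stages of the oestrous cycle were unequally spread over the groups, so treatment was also set apart by stage, in a model with 1 mean for each treatment and stage. Among rats in diestrus, 6 treated and 9 control, 6 of the 8 member probe sets were called higher, against 10% of all probe sets called and 4.73% called higher. The called differences ran from 0.81 for Gpam to 1.39 for Gpd1 (1369560_at). Agpat2 was 0.88 ± 0.36 higher (SE; limma adjusted p = 0.141) and Dgat1 0.08 ± 0.19 (SE; adjusted p = 0.893), and neither passed. Dgat2 ran from 11.73 to 12.70 in treated rats, against 10.48 to 11.71 in control rats, and was the only member with no overlap in diestrus, where 0.763% of all probe sets had treated rats wholly above control rats.

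Outside diestrus, with 6 treated and 3 control rats, 4 of the 8 were called higher by limma, both probe sets of Gpd1, Gpam and Dgat2, against 1.91% of all probe sets called and 1.57% called higher. Gpd1 (1371363_at) differed by 1.25 ± 0.27, Gpam by 1.10 ± 0.25 and Dgat2 by 1.32 ± 0.25 (SE). Lpin1 was 1.20 ± 0.33 higher (adjusted p = 0.0574), Aqp7 0.88 ± 0.25 (0.0683), Agpat2 1.01 ± 0.49 (0.384) and Dgat1 0.16 ± 0.26 (0.914), none of them called. Single rats decided this count. Without control rat 3 or control rat 10 it was 0 of 8, with 2 and 4 probe sets called over the whole array, although the differences of the 4 ran from 1.06 to 1.29 without control rat 3 and from 1.10 to 1.53 without control rat 10. Without treated rat 11 or treated rat 2 it was 2, and without treated rat 3 it was 6. Fitted on the rats of this stage alone, Gpam was no longer called (adjusted p = 0.07), and Aqp7 was (0.0371).

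Stage itself moved no member past the threshold. With treatment as a covariate, rats outside diestrus differed from rats in diestrus by -0.07 (Dgat1) to 0.10 (Agpat2 and Aqp7), and 0 of the 8 were called by limma, of 0 of 15866 probe sets (0%). At an unadjusted p under 0.05 there were 0 members and 581 probe sets in all. Each of the 95% confidence intervals held 0, the widest being that of Agpat2, from -0.50 to 0.71. The treatment difference outside diestrus minus that in diestrus was -0.30 ± 0.31 for Aqp7, 0.28 ± 0.32 for Gpam and between these values for the other members (SE), with 0 of 8 called and 0% of all probe sets. At an unadjusted p under 0.05 there were 0 members and 322 probe sets.

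Ordered by level, the 4 groups of rats fell into treated and control. For Dgat2 the means were 12.42 ± 0.30 in treated rats outside diestrus (SD, n = 6), 12.28 ± 0.34 in treated rats in diestrus (n = 6), 11.10 ± 0.09 in control rats outside diestrus (n = 3) and 11.07 ± 0.48 in control rats in diestrus (n = 9). Neighbours of the same treatment differed by less than the SD between rats, and the step lay between treated and control. Aqp7 gave 10.45 ± 0.31 and 10.48 ± 0.45 in treated rats outside and in diestrus, against 9.57 ± 0.20 and 9.30 ± 0.40 in control rats outside and in diestrus (SD, the same numbers of rats). For Dgat1 the 4 means lay between 9.65 and 9.84, and no pair of neighbours differed beyond the spread.

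Pools asked whether combined targets gave the same differences. They hold the same rats as the single arrays, so their values are no independent repeat. In the 6 treated and 6 control pools of 2, 6 of the 8 member probe sets were called higher by limma, against 8.82% of all probe sets called and 5.15% called higher. Dgat2 differed by 1.19 ± 0.12, Aqp7 by 1.10 ± 0.12, Gpd1 by 1.16 ± 0.16 (1371363_at), Lpin1 by 1.03 ± 0.20 and Gpam by 0.90 ± 0.18 (SE). Agpat2 was 0.77 ± 0.26 higher (adjusted p = 0.0887) and Dgat1 0.13 ± 0.15 (0.724). Treated pools of 2 lay wholly above control pools for these 6 called probe sets, as for 2.89% of all probe sets, but for Agpat2 they overlapped.

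In the 4 treated and 4 control pools of 3, 6 of 8 were called higher, against 6.24% of all probe sets called and 3.26% called higher. Gpam was 7.24, 7.74, 7.12 and 6.58 in treated pools, against 6.23, 6.73, 6.25 and 6.26 in control pools. The lowest treated pool lay below the highest control pool, and the difference was 0.80 ± 0.20 (SE; limma adjusted p = 0.036). This call was lost without any 1 of 6 of the 8 pools, namely treated pools 1, 2 and 3 and control pools 1, 3 and 4 (adjusted p up to 0.0976). Without the pools that hold rat 3, which are treated pool 3 and control pool 3, its adjusted p was 0.147, and 5 of 8 were called. Agpat2 was 11.45, 11.14, 10.56 and 10.35 in treated pools, against 10.11, 10.51, 10.04 and 9.56 in control pools. The groups overlapped in 1 treated pool, and the difference of 0.82 ± 0.24 was not called (SE; limma adjusted p = 0.0661). It passed without treated pool 4 (0.0244) or control pool 2 (0.0423), as it did in pools of 2 without treated pool 6 (0.0497).

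Between the pools of 12, each 1 mixture hybridised 4 times, the differences have no test. Gpd1 (1369560_at) was 10.36, 10.11, 10.27 and 10.35 on the arrays of the treated pool, against 8.98, 8.89, 8.94 and 8.90 on those of the control pool. The means differed by 1.34 for that probe set, 1.26 for Dgat2, 1.18 for Gpd1 (1371363_at), 1.15 for Aqp7, 1.10 for Lpin1, 0.97 for Gpam, 0.88 for Agpat2 and 0.14 for Dgat1. Of the 8, Dgat1 was the only one whose treated and control arrays overlapped. How many of all probe sets were without overlap here was not counted. Repeat arrays of 1 mixture hold no spread between rats, so small differences can separate them.

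**Figure D3:**
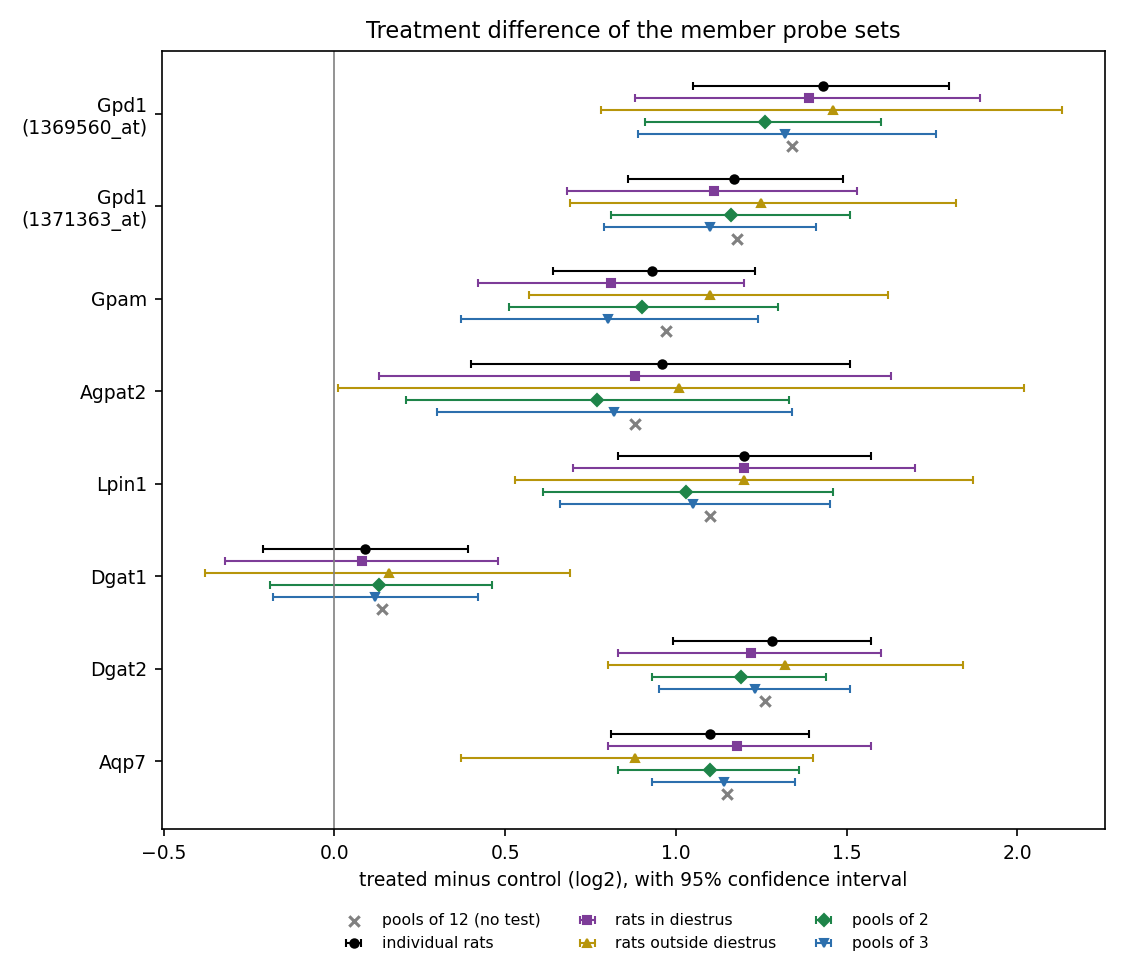
Treated minus control (log2, horizontal axis) for each member probe set (vertical axis), with 95% confidence intervals from limma, in individual rats, rats in diestrus, rats outside diestrus, pools of 2 and pools of 3. Grey crosses are the pools of 12, without a test. The intervals of Dgat1 hold 0 in every comparison, and those of all other members lie above 0 in each. The interval of Agpat2 outside diestrus begins at 0.01, and Agpat2 passed the adjusted threshold in individual rats only.

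A pool should read as the mean of its rats on the linear scale if labelled targets mix evenly. Set against that value, pools of 2 differed by a median of 0.106 log2 in absolute size over the 8 member probe sets, pools of 3 by 0.0967 and arrays of the pools of 12 by 0.0754. The largest departure was 0.34, in pools of 2 for Dgat1. Dgat1, Agpat2 and Lpin1 read above their rats at the median, with departures in pools of 2, 3 and 12 of 0.11, 0.18 and 0.08 for Dgat1, of 0.13, 0.12 and 0.06 for Agpat2 and of 0.06, 0.10 and 0.12 for Lpin1. By the same measure Gpd1 (1371363_at) was also above, at 0.05, 0.11 and 0.07, and Aqp7 at 0.07, 0.10 and 0.03. Gpd1 (1369560_at) and Dgat2 lay between 0.00 and 0.02, and Gpam read at -0.01, -0.12 and -0.07. Departures over all probe sets were not computed.

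Rats of the same treatment differed in the members together. For each rat, deviations from the mean of its own group were taken over the 7 genes, with 1371363_at for Gpd1. Treated rats 4, 7, 10 and 11 lay above the treated mean for all 7 genes, and treated rats 3, 8 and 9 lay below it for all 7. The mean deviation ran from -0.69 in treated rat 9 to 0.61 in treated rat 7. Control rat 14 lay above the control mean for all 7 genes and control rats 6, 9 and 12 below it for all 7, with mean deviations from -0.37 in control rat 2 to 0.73 in control rat 14. Both high and low rats occurred in diestrus and outside it among treated rats, while control rat 14 and control rats 6, 9 and 12 were all in diestrus. How often rats lie on the same side of the mean for other sets of genes was not counted.

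**Figure D4:**
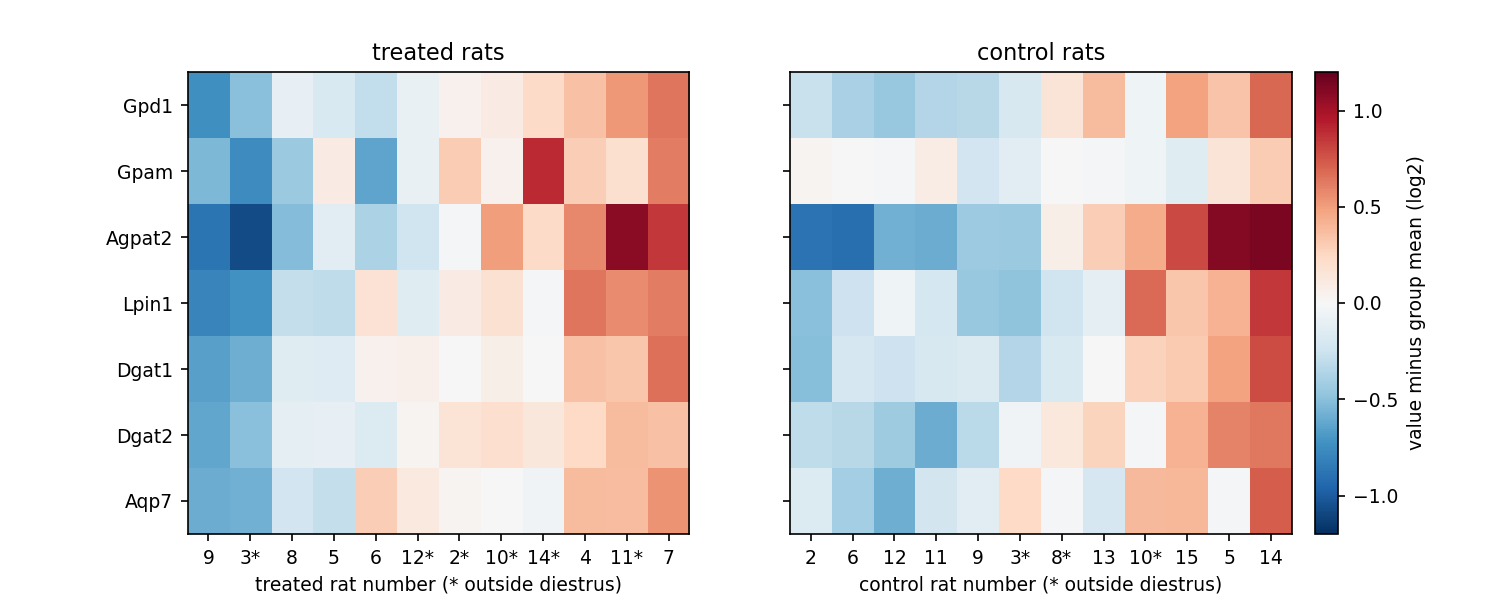
Deviation of each rat's log2 value from the mean of its group (colour, red above and blue below) for the 7 genes (rows), in treated rats (left) and control rats (right), ordered by mean deviation. A star marks rats outside diestrus. In 7 of the 12 treated rats all 7 genes lie on the same side of the group mean, and in 4 of the 12 control rats. Other sets of genes were not counted in this way. The Gpam row is pale in control rats.

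Over the 21 pairs of genes, Pearson's r across the 12 treated rats ran from 0.54 to 0.96 with a median of 0.90, and across the 12 control rats from 0.23 to 0.95 with a median of 0.69. These genes were read on the same arrays, so a rat's tissue make-up and array are shared by all of them. By permutation tests with adjustment over these 42 relations, 20 pairs passed in treated and 15 in control rats by r, and 18 in treated and 11 in control rats by Spearman's rho. The same count was not made for pairs of other genes, so these counts do not set the members apart from other genes. Gpd1 and Dgat2 followed each other at r = 0.96 (rho = 0.97) in treated and r = 0.95 (rho = 0.96) in control rats, with permutation p-values of 1e-05 for both measures in treated rats and of 2e-05 and 1e-05 in control rats, of which 1e-05 is the smallest the permutations can give. The adjusted values for this pair were 7e-05 (0.00014 for rho) in treated and 9.33e-05 (0.00014 for rho) in control rats, and r without the 2 farthest rats was 0.95 and 0.93. Dgat1 tracked the others as well as the called genes did, with a median r of 0.93 in treated and 0.81 in control rats.

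Gpam stood apart in control rats, where its r with the other 6 genes ran from 0.23 to 0.54 and 0 of 6 pairs passed by permutation. In treated rats its r ran from 0.54 to 0.80 and 5 of 6 passed. The difference between these groups was not tested, and the small spread of Gpam in control rats stands beside it. Lowest was Gpam with Aqp7, at r = 0.54 (rho = 0.49) in treated rats, with permutation p-values of 0.071 and 0.111 and adjusted values of 0.0814 and 0.133. In control rats r was 0.23 (rho = -0.11), with permutation p-values of 0.484 and 0.743 and adjusted values of 0.484 and 0.78. Without the 2 rats farthest from the median, all 21 r values stayed positive in treated rats and 19 did in control rats, where Gpam turned to -0.49 with Aqp7 and -0.07 with Dgat2.

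Across all named genes, likeness to the members was measured as Pearson's r over the 24 rats of deviations from the own group's mean, averaged over the 7 genes. Over 12775 other probe sets the median of this mean r was -0.09. The most alike were Pgrmc2, a haem-binding membrane protein, at 0.87, Tkt, the transketolase of the pentose phosphate pathway, at 0.86, Pdk1, an inhibitor of pyruvate dehydrogenase, at 0.85, and at 0.84 each Slc7a10, an amino acid carrier, Slc2a4, the insulin-responsive glucose transporter, and Slc25a10, the mitochondrial dicarboxylate carrier. For single members, Tkt (0.94) and Aco1 (0.93) were most like Gpd1, and Slc2a4 (0.91, by the other of its probe sets) and Acaca (0.90) most like Gpam. Acss2 (0.95) and Elovl6 (0.94) were most like Agpat2, Apmap (0.95) and Ginm1 (0.94) most like Lpin1, and Slc7a10 (0.96) and Apmap (0.95) most like Dgat1. Acly and Fasn (0.93 each), enzymes of fatty acid synthesis, were most like Dgat2, and Auh (0.93) and Plaat3 (0.92) most like Aqp7. These genes were picked as the highest of so many, so the values describe these rats only.

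Of 31 further genes of the pathway, 24 were measured. By limma in the individual rats 5 were higher, 2 were lower and 17 were not called, where with 1 probe set per gene 9.81% of all genes were called higher and 10.4% lower. Their median difference was 0.01. Of the glycerol and glycerol-3-phosphate supply genes, 3 of 7 were higher and 1 was lower. Tpi1, which interconverts dihydroxyacetone phosphate and glyceraldehyde 3-phosphate, was 10.63 to 11.21 in treated rats, against 10.24 to 10.64 in control rats, a rise of 0.52 ± 0.06 (SE; adjusted p = 1.72e-06). Gpd2, the mitochondrial glycerol-3-phosphate dehydrogenase, rose by 0.29 ± 0.08 (adjusted p = 0.011), while its other probe set gave 0.09, and Pgp, a phosphatase that can act on glycerol-3-phosphate, rose by 0.50 ± 0.06 (SE; adjusted p = 5.75e-06). Pck1, through which fat cells make glycerol-3-phosphate without glucose, was lower by limma, at -1.06 ± 0.30 (SE; adjusted p = 0.0135). It ran from 8.43 to 12.22 in treated rats, against 10.71 to 11.73 in control rats, so that the treated range enclosed the control range.

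In the acylation list, Agpat3 was the 1 of 6 genes called. It ran from 6.95 to 8.60 in treated rats, against 6.57 to 7.52 in control rats, and rose by 0.93 ± 0.15 (SE; limma adjusted p = 5.45e-05), a difference of the size of Agpat2's. Gpat4, Agpat1, Agpat4, Agpat5 and Lclat1 lay between -0.00 and 0.07 and were not called. Of the phosphatidate phosphatases and the branch to phospholipids, 0 of 6 were higher and Plpp2 was lower, by limma at -0.38 ± 0.07 (SE; adjusted p = 0.000303). Cds1, which turns phosphatidate towards phospholipids, was -0.16 ± 0.06 (adjusted p = 0.059) and not called. Lpin3, in the same family as Lpin1, was -0.12 ± 0.04 (adjusted p = 0.0632) and not called. Of 4 genes of droplet formation, Fitm2, which helps lipid droplets bud, rose by 0.65 ± 0.23 (SE; limma adjusted p = 0.0478) and the other 3 were not called, nor was Soat1, the 1 gene measured of the other acyltransferases. Several of these calls were not made in the pools. Fitm2 was 0.63 (adjusted p = 0.149) in pools of 2 and 0.68 (0.144) in pools of 3, and Pck1 was -0.58 (0.2) and -0.70 (0.138). In pools of 3, Gpd2 was 0.16 (0.344) and Plpp2 was -0.37 (0.0925), while both were called in pools of 2. Tpi1, Pgp and Agpat3 were called in both pool sizes.

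**Figure D5:**
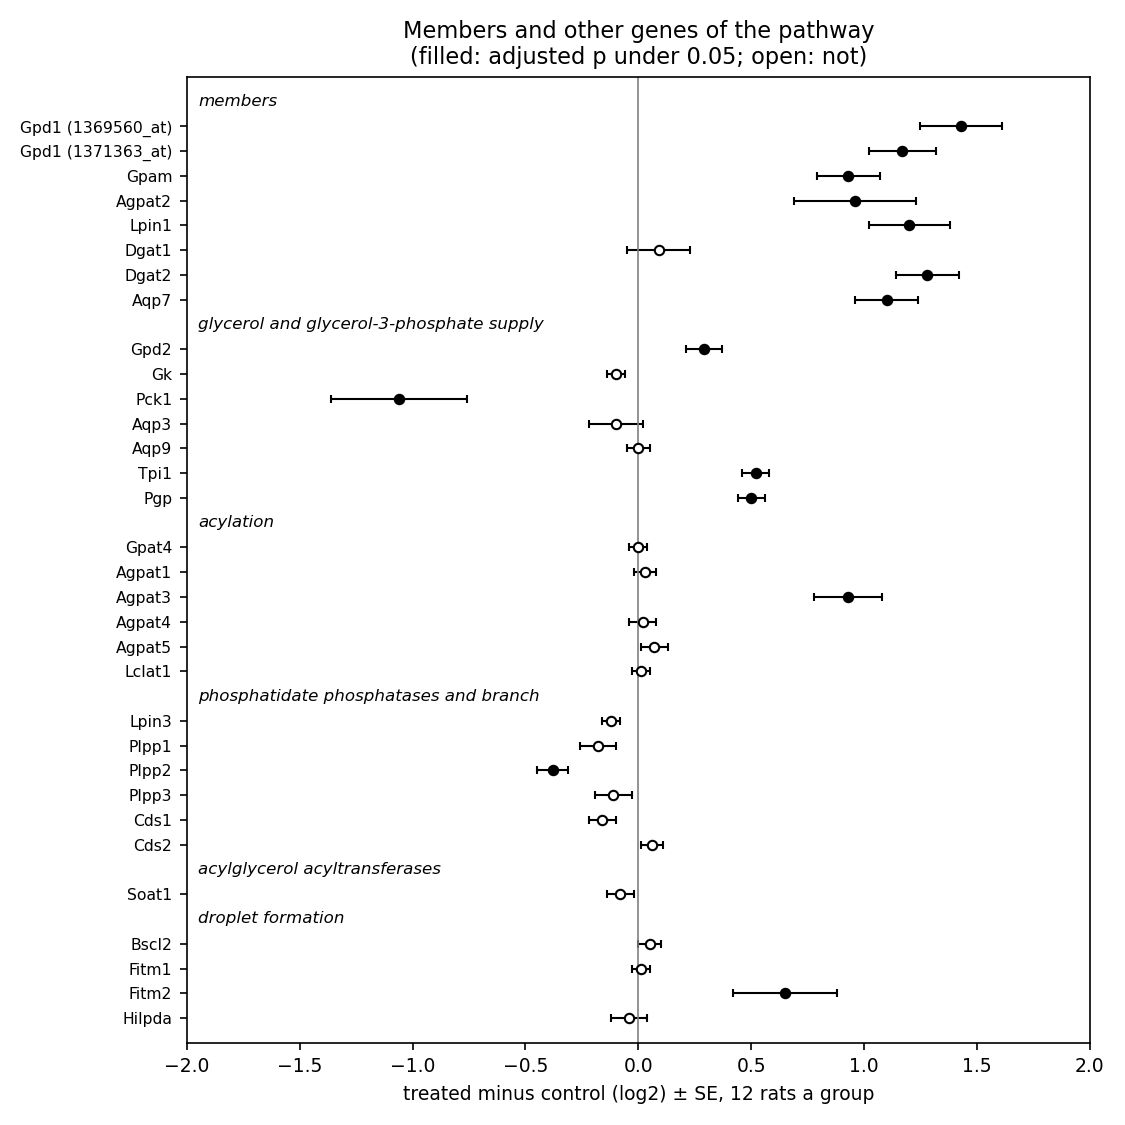
Treated minus control (log2, horizontal axis) ± SE from limma in 12 treated and 12 control rats, for the 8 member probe sets and the 24 further pathway genes measured, grouped by step. Filled points passed an adjusted p of 0.05 and open points did not. Of the 24 further genes most lie close to 0, apart from Agpat3, Fitm2, Tpi1 and Pgp on the higher side and Pck1 and Plpp2 on the lower.

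Markers of the cells a gland holds moved with treatment too. Of 14 adipocyte markers, none of them a member, 11 were measured, of which 7 were higher, 1 (Cfd) was lower and 3 were not called, where over all genes 9.81% were called higher and 10.4% lower, and their mean ran from 9.65 to 10.59 in treated rats, against 9.49 to 10.31 in control rats. Fabp4, the fatty acid binding protein of fat cells, differed by 0.31 ± 0.09 (SE, by limma). Lpl differed by 0.57 ± 0.10 and Lep by 1.01 ± 0.11, while Cfd, the marker that was lower, differed by -0.69 ± 0.09. Plin1, which coats fat cell droplets, was 0.24 ± 0.15, Plin4 0.26 ± 0.14 and Cd36 0.07 ± 0.13, none of them called. Of 11 luminal markers 8 were lower and 0 higher, with means of 9.31 to 9.68 in treated rats, against 9.62 to 10.02 in control rats. Of 8 basal markers 4 were lower and 1 higher, with means of 9.55 to 10.18 in treated and 9.81 to 10.39 in control rats. Brown adipocyte (5) and muscle markers (7) had 0 calls, 1 of 2 macrophage markers was higher and 1 of 3 endothelial markers lower. Brown adipocyte and muscle markers except Cidea and Myh1 had means at the 0.321 to 38.7 percentile of all probe sets. At such levels 0 calls say little of these cells.

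The adipocyte mean also varied between rats of a group. It was 10.47, 10.59, 10.12 and 10.43 in treated rats 4, 7, 10 and 11, which were above the treated mean for all 7 genes, and 9.78, 10.00 and 9.65 in treated rats 3, 8 and 9, which were below it for all 7. Treated rat 10 thus lay under the treated median of 10.26, and treated rat 6, with a mean member deviation of -0.14, lay above it at 10.34. In control rat 14 the adipocyte mean was 10.31, the highest of the control rats, and in control rats 6, 9 and 12 it was 9.78, 9.69 and 9.49, of which the first lay above the control median of 9.71. The part of cell composition in the treatment difference and in the shared deviations was not tested.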

How the data were processed

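Per the labels, total RNA of each mammary gland (5 µg) was made into labelled, fragmented cRNA, and pools combined equal amounts to 10 µg after labelling. The deposited values are log2 values, a unit inferred from their range, 4.12 to 14.08, since the sources used here give neither the authors' software nor their background correction or normalization. They were used as deposited, without a filter on dim probe sets. After 57 control probe sets were left out, 15866 of 15923 remained, of which 12783 had 1 gene symbol, 312 several and 2771 none here. Symbols came from the platform annotation and were updated by Entrez ID to RefSeq genes of GRCr8 (12748 probe sets). Named genes were the 7 members, up to 8 pathway genes called or with the smallest p, 6 genes most like the members and 2 most like each. Further pathway genes and markers are named outside this rule, chosen after their values were seen.

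Differences were tested with limma 3.58.1 (lmFit and eBayes) in R 4.3.3, 1 array per rat or pool, with Benjamini-Hochberg adjustment over all probe sets. By stage, contrasts came from 1 model of the 4 treatment and stage means over all 24 rats. Correlations used 100000 permutations (two-sided), in Python 3.11.15 with numpy 2.4.6, pandas 2.3.3 and matplotlib 3.10.9. The fits were tested on simulated data. The members, lists and tests were chosen with earlier results of these data known. Alternatives were median centring, quantile normalization, leaving out dim probe sets, array weights, a robust prior, stage as a covariate, a block by rat number, the repeat arrays, a stricter threshold and leaving out single arrays. A floor planned for linear values was not needed.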

Additional observations from a re-analysis of the deposited data

Results flagged for a closer look

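In groups of 4 to 10 arrays, the distance of the highest or lowest array from its nearest neighbour was set against the range of the group, over 72 combinations of group and member probe set, where chance marks about 1 in 20. 3 were marked. Dgat1 in treated rats outside diestrus was 9.24 in treated rat 3, against 9.83 to 10.15 in the other 5 rats. Gpd1 (1369560_at) in control rats in diestrus was 9.57 in control rat 14, against 8.46 to 8.99 in the others. Gpam in control pools of 3 was 6.73 in control pool 2, against 6.23 to 6.26 in the other 3 pools. Without that pool the Gpam difference in pools of 3 was 0.92 (limma adjusted p = 0.0269), against 0.80 with it.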

How the results depend on the processing

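The count of 7 of 8 member probe sets in individual rats was the same in each of the 24 fits that left out 1 rat. It fell to 6 of 8 only at an adjusted p of 0.01, where Agpat2 was lost. With 1 probe set per gene it was 6 of 7, as 1 of the Gpd1 probe sets was then left out. Rat numbers occur in both groups for 10 numbers, and same-numbered rats deviated together in 5 of 10 (r over 0.1, range -0.389 to 0.358). The numbers were treated as names only, although so few pairs cannot exclude a pairing. With the replicate block by rat number 7 of 8 were called, of 2535 probe sets over the array. With that block among the rats of 1 stage alone, 0 members were called in diestrus and 0 outside it, where 0 probe sets passed on the whole array and few rats remained, and Dgat1 turned to -0.20 and -0.13. Leaving out 1 rat outside diestrus gave 0 to 6 called members, with 2 to 559 probe sets called on the whole array. Centring each array on its median turned the interaction of Lpin1 to 0.0044. Leaving out 1 rat, the stage difference ran from -0.01 to 0.23 for Agpat2, -0.01 to 0.17 for Gpam, -0.01 to 0.19 for Gpd1 (1369560_at), -0.04 to 0.11 for Gpd1 (1371363_at) and -0.14 to 0.07 for Lpin1, and the interaction from -0.10 to 0.36 for Agpat2, -0.06 to 0.26 for Dgat1, -0.0037 to 0.22 for Dgat2, -0.13 to 0.28 for Gpd1 (1369560_at) and -0.23 to 0.35 for Lpin1. In diestrus Dgat1 ran from -0.05 to 0.21. No called member turned its sign. The cause of these changes was not tested. Pools of 3 without the pools that hold rat 3 gave 460 called probe sets, against 990. Correlated pairs numbered 35 to 37 of 42 by Pearson's r and 29 to 30 by Spearman's rho over the settings tried. Dgat2 minus Dgat1 was 1.18 to 1.23 over other normalizations and the mean of the 3 arrays of rat 3, settings added after the data were seen.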
